A study of Mus musculus with 115 samples.

Results

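The genes described here are 10 of the core circadian clock and its closest outputs: Arntl, Clock, Npas2, Per1, Per2, Per3, Cry1, Dbp, Tef and Nfil3. They were chosen by symbol, and every probe carrying one of these symbols was taken, which gave 16 of 25697 probes and 10 of 18120 symbols on the array. Illumina BeadChips measured their RNA on 60 arrays of liver and 55 of inguinal fat. The mice, on a C57BL/6J background, came from a cross that parts gonad type from sex chromosomes: the Y chromosome lacks Sry, the gene that starts testis formation (written Y-), and some mice carry Sry as a transgene on another chromosome. XX and XY- mice had ovaries and XXSry and XY-Sry mice had testes, until all of them were gonadectomised at 75 days of age. Each mouse was given a capsule at once, either blank (B, adhesive only), with testosterone (T, 5 mM) or with estradiol (E, 50 µg, in sesame oil), and tissues were taken 3 weeks later. Every group of genotype and treatment had 5 liver arrays. In adipose tissue 1 group (XX B) had 3 arrays, 3 groups had 4 (XY-Sry B, XXSry E and XX T), and the others had 5.

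Several features of the design limit what these groups can show for genes that cycle over the day. The labels give a light and dark cycle of equal length but no hour of collection, so the part of collection time in any difference was not tested. Mice with ovaries and mice with testes were kept in separate cages, so that gonad type and cage cannot be told apart. The oil of the estradiol capsule cannot be told apart from its hormone. Nothing in the labels numbers the animals, and p-values therefore measure the spread between these samples.

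The mammalian clock is a feedback loop that runs in nearly every cell. BMAL1 (the product of Arntl) pairs with CLOCK or NPAS2, binds E-box sequences and switches on the Period and Cryptochrome genes, whose proteins then repress their own activators. The same pair drives Dbp and Tef, which activate genes through D-box sequences, while NFIL3 represses through the same boxes and is itself controlled through ROR elements by REV-ERB repressors and ROR activators. In liver and fat these outputs time the use of nutrients, and Dbp is known for one of the deepest daily swings of any liver transcript.

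Promoter sequences of the members were searched for the motifs of this loop. RefSeq start sites (GRCm38.p6) were found for 9 of the 10 members, in 14 windows of 250 bases before a start, and both strands were searched for the E-box CACGTG, the D-box TTANGTAA and the ROR element ANTAGGTCA. A motif was found in 6 of the 14 windows. Those of Per1, Per3, Tef and Nfil3 are printed because levels of these genes are described below, with the motif in capitals and each sequence read 5′ to 3′ along the strand of the gene.
Per1, chr11:69098743-69098828, plus strand, E-box 166 bases before the start: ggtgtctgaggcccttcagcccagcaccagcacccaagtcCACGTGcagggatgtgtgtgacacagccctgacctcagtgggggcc
Tef, chr15:81802506-81802591, plus strand, E-box 127 bases before the first start: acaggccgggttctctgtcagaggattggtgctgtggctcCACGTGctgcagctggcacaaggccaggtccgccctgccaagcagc
Per3, chr4:151044776-151044910, minus strand, D-boxes 205 and 158 bases before the start: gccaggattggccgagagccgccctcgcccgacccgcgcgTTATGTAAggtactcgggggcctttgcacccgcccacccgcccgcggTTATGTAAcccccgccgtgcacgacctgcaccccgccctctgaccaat
Nfil3, chr13:52981040-52981091, minus strand, ROR element on the opposite strand, 12 bases before the start: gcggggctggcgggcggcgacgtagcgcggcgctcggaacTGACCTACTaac
The second start of Tef had an E-box 138 bases before it, and Cry1 had one 60 bases before its start. No searched motif lay in the window of Dbp or in those of Arntl, Clock and Npas2, which says only that these letters are not in these windows. Of all 32851 windows of this length, 6.02% held the E-box, 2.06% the D-box and 0.548% the ROR element. A match is a description of the sequence, and binding was not measured here.

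Levels are log2 intensities after background correction and quantile normalisation, and levels of different probes are not compared. Array medians of the deposited signal lay between 124 and 159 for liver and between 129.9 and 230.4 for fat. In liver 31.8% to 41.0% of probes were detected (detection p under 0.01), and in fat 40.3% to 49.0%. In liver, 11317 probes entered the test, 12 of them from 7 members, and in adipose tissue 14636, 12 of them from 8 members. Marker genes of hepatocytes were detected in liver and those of adipocytes in adipose tissue, but adipose arrays also differed widely in markers of muscle, lymphocytes and epithelium. The adipose muscle score (mean log2 level of 5 genes) ran from 5.88 to 14.4. The hepatocyte score, also of 5 genes, had a median of 7.59 in adipose testosterone arrays. It reached 12.5 in that arm, as high as the median of testosterone livers (12.5). The library labelled liver XY-Sry T replicate 5 had transcripts of the sex chromosomes like those of XX mice (Xist 6.63, Eif2s3y 4.53), and that labelled liver XY- E replicate 5 had Hsd3b5, a liver gene induced by androgen, at 12.3, within the range of the testosterone arrays (11.1 to 12.9). All 5 XXSry E livers lay between 8.47 and 11.2 in Hsd3b5, above the 14 remaining estradiol livers at 4.50 to 7.72. The label fields of adipose XX E replicate 1 disagree on its treatment, and its level of the estradiol-induced gene Greb1, 9.22, lay within the range of the other XX E arrays. When each of these 3 single arrays was left out, the member calls given below for the hormones averaged over genotypes were kept; without liver XY-Sry T replicate 5, 1 member probe was called for gonad type in liver where none was with it.

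Several members were dim on these arrays. In liver, Arntl was detected on 3 of 60 arrays and Npas2 and Cry1 on none, and none of these was tested. In adipose tissue Arntl was detected on 29 of 55 arrays and was tested, while Npas2 and Cry1 were again detected on none. Clock had 3 probes, of which the brightest was detected on every array of both tissues. Per1, Per2, Per3, Dbp, Tef and Nfil3 were tested in both tissues. Where a member had several probes, the brightest is described and the others are named where they differ.

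Dbp, the activator of D-box genes, showed how unequal liver arrays of one group could be. In the XX B group its levels were 7.55, 9.60, 11.58, 12.19 and 12.37, and in the XX E group 6.86, 10.66, 11.66, 11.79 and 12.03. In the XY- E group they were 9.11, 10.86, 11.79, 12.28 and 12.29. These 3 groups, all without Sry, held the 4 lowest of the 60 values, with group SDs of 2.06, 2.15 and 1.34. In the XXSry B group the levels were 12.29, 12.40, 12.43, 12.54 and 12.93, and in the XY-Sry B group 12.20, 12.46, 12.68, 12.76 and 12.78, with SDs of 0.24 and 0.25. The SD of the XY- B group, 0.23, was equally small, so not every group without Sry was wide. Among groups with Sry the XY-Sry E group was the widest, with levels of 11.09, 11.15, 11.81, 11.96 and 12.67 and an SD of 0.65, above those of XX T (0.46) and XY- T (0.31).

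The 4 liver arrays lowest in Dbp were also near one end of Per3 and of Nfil3, and some of them of other members. In XX E replicate 1, Dbp was 6.86, Per3 4.52, Per2 7.37 and Tef 6.16, each the lowest of 60 arrays, and Nfil3 was 11.55, the highest. XX B replicate 1 had Dbp at 7.55, Per3 at 5.02, Per1 at 4.69 and Nfil3 at 10.86, the second highest. XY- E replicate 2 had Dbp at 9.11, Per3 at 5.05, Tef at 6.50 and Nfil3 at 9.83, and XX B replicate 3 had Dbp at 9.60, Per3 at 5.61, Tef at 6.73 and Nfil3 at 10.08. Tef of XX B replicate 1 was 7.06. Of these 4 arrays, XX E replicate 1 and XX B replicate 3 were among the 6 lowest of 60 in Per2. Only XX B replicate 1 was among the 6 lowest in Per1. Per3 was thus low and the repressor Nfil3 high on the 4 arrays lowest in Dbp, while Clock, at 9.21, 9.66, 8.95 and 9.22 in the same order, lay above its blank median of 8.33.
The acute-phase gene Lcn2 stood at 14.7 on XX E replicate 1 and 14.8 on XY- E replicate 2, but at 7.37 on XX B replicate 1 and 7.85 on XX B replicate 3. Over all tested probes XX E replicate 1 and XY- E replicate 2 had the lowest median correlations with other liver arrays, 0.910 and 0.941. Those of XX B replicates 1 and 3 were 0.962 and 0.971. Over all liver arrays the correlation of Dbp with Lcn2, after group means were removed, was -0.18 (Spearman's rho -0.09, permutation test, adjusted p = 0.234 and 0.622). It was -0.17 without the 2 arrays lowest in Dbp, with the group means still those of all arrays.

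**Figure D1:**
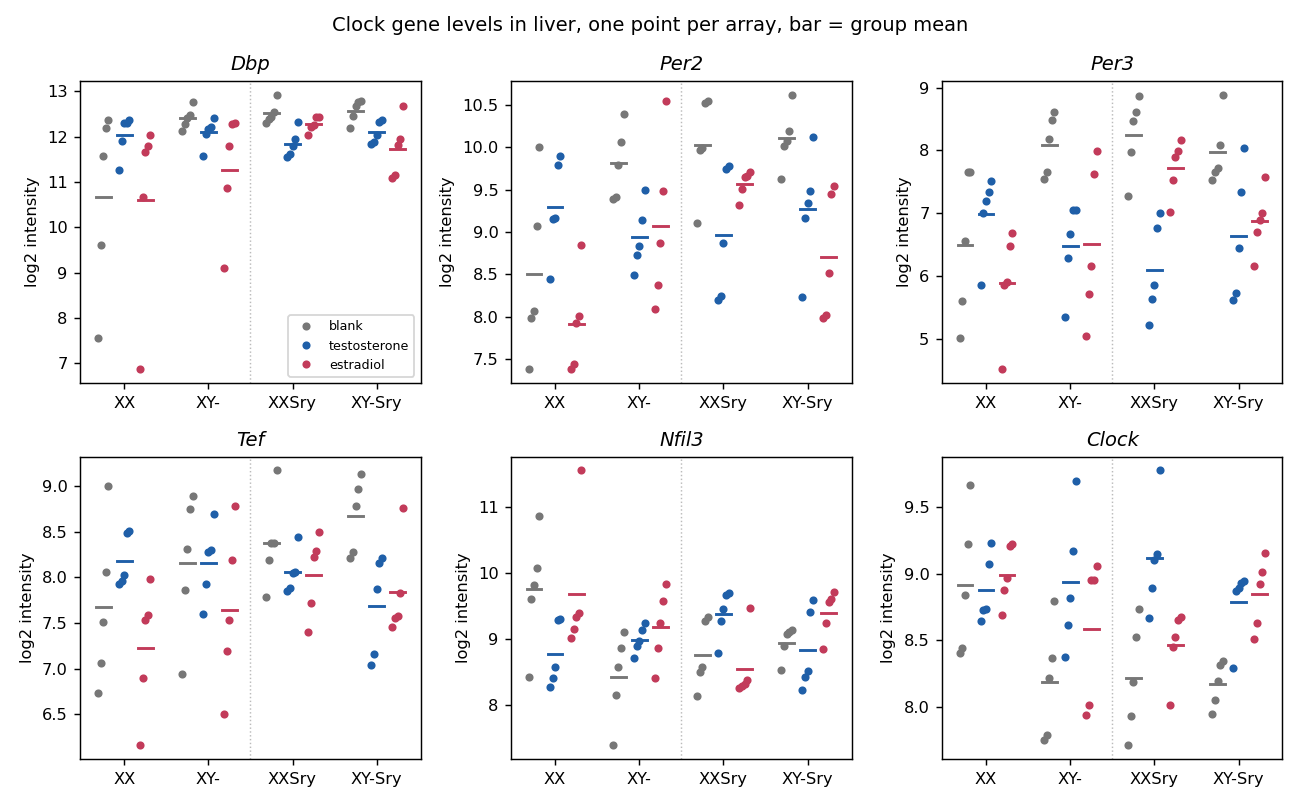
Levels of 6 clock genes in liver by genotype and treatment, as log2 intensity of the brightest probe, with 1 point for each of 60 arrays and a bar for the mean of each group of 5; the dotted line divides groups without Sry from groups with it. Dbp lies between 11.09 and 12.93 in all groups with Sry and falls to 6.86 in the XX E group.

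Spread within groups was described for every tested probe as the residual SD over the 12 group means. In liver the SD of Dbp was 0.99 on the log2 scale, at percentile 99.8 of all tested probes, with 26 of 11317 probes wider, against a median of 0.36 across all of them. Per3 (SD 0.80) was at percentile 99.4, Per1 (0.78) at 99.3, Per2 (0.66) at 98.4, Tef (0.59) at 96.9 and Nfil3 (0.59) at 96.9. Clock, with an SD of 0.38, stood at percentile 60.9, near the middle of all probes. The SD of Dbp was 11.3 times the error between beads of 1 array, and the median of that ratio over all tested probes was 4.72.

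Adipose tissue gave another order. Its Dbp had an SD of 0.49 at percentile 65.2, Per2 0.54 at 73.2, Tef 0.56 at 76.5, Arntl 0.56 at 76.1 and Per1 0.69 at 86.2. Clock, at 0.22, was among the steadiest probes of the tissue, at percentile 7.50, though at 21.4 when arrays were centred on their medians in place of quantile normalisation. Per3 was the widest member by its brightest probe, with an SD of 1.11 at percentile 95.5. A dim probe of Tef, detected on 26 of 55 arrays, had an SD of 1.21 at percentile 96.3.

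**Figure D2:**
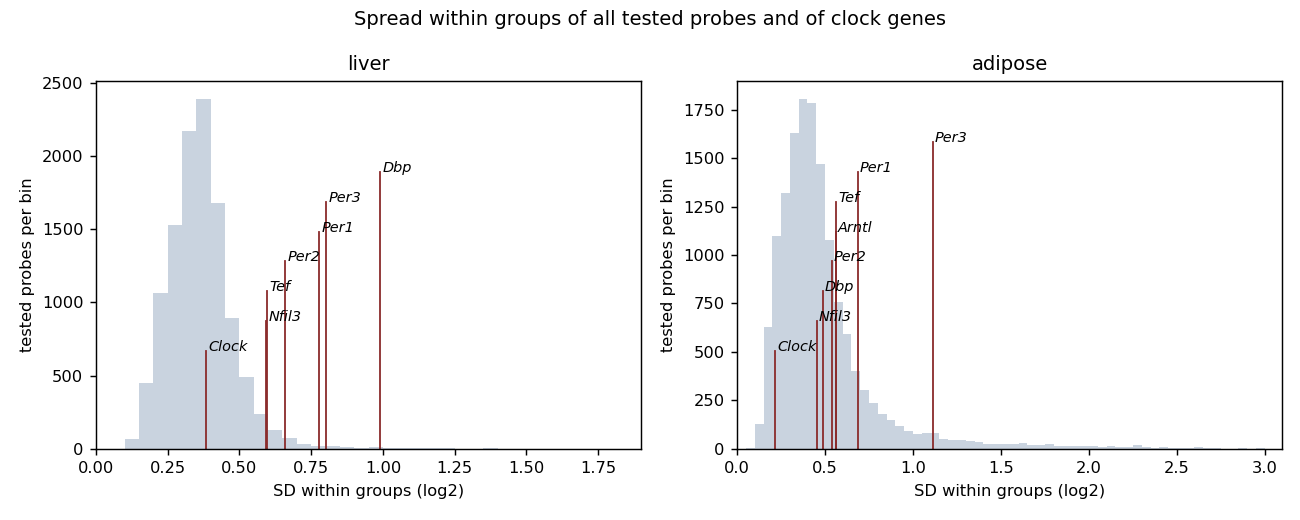
Histograms of the SD within groups (log2) of all tested probes in liver and adipose tissue, in bins of 0.05, with lines at the brightest probe of each clock gene. In liver all members but Clock lie in the right tail, up to 0.99 for Dbp, and in adipose tissue only Per3, at 1.11, lies far to the right.

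Arrays of each tissue were run on 8 slides, and the slide was the only batch in the labels. In adipose tissue the slide took 77.7% of the residual variance of Per3 (limma F test, adjusted p = 8.44e-09), against a median of 27.5% over all tested probes. Slide medians of Per3 ran from 5.91 to 8.73, and the member with the next highest share was Per1, with 47.7%. Slide effects were called for 4 of the 12 member probes in adipose tissue, where 32.7% of all tested probes were called, and for 3 of 12 in liver, where 54.7% were. In liver these were 1 probe of Per1 and both of Tef, and Dbp was not among them (15.8% of its residual variance, adjusted p = 0.360).

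Spread was then compared between the gonad types by a limma fit on absolute deviations from the group mean, a test chosen after the values had been seen. In liver the mean deviation of Dbp was 0.82 in groups without Sry and 0.24 in groups with it, a difference of 0.65 ± 0.14 (SE, fitted) that did not pass the threshold (adjusted p = 0.0805). Without the 3 arrays lowest in Dbp (XX E replicate 1, XX B replicate 1 and XY- E replicate 2) the difference was 0.22 ± 0.08 (limma, adjusted p = 0.440). No member was called in this test, in which 3 of 11317 liver probes (0.0265%) were wider without Sry.

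Testosterone lowered Per3 and raised Clock in liver. Per3, a Period gene, had levels of 5.02 to 8.88 in the 20 blank arrays (median 7.69) and 5.23 to 8.04 in the 20 testosterone arrays (median 6.72). The arms overlapped, and the difference averaged over genotypes was -1.15 ± 0.24 (SE), 2.22-fold lower (limma, adjusted p = 0.00029). The probe of Clock that is brightest had levels of 7.71 to 9.66 in blank arrays (median 8.33) and 8.29 to 9.78 with testosterone (median 8.89), a difference of 0.56 ± 0.12 (adjusted p = 0.00041). Its 2 other probes differ from this: one was 0.17 ± 0.13 higher and was not called, and the other was detected on no array. These were 2 of 12 member probes, 1 higher and 1 lower, and 19.1% of all tested liver probes were called, 8.17% higher and 10.9% lower, so the share of members called was near the background. Per2 was at -0.50 ± 0.20 (adjusted p = 0.0690) and passed, at -0.57 to -0.55, without any 1 of XY-Sry T replicate 1, XXSry B replicate 3, XXSry T replicates 1 and 2, and XX B replicate 3. The median difference over the 12 probes was -0.17, and over all tested probes 0.00305. Markers of other cells moved in the same livers. Both probes of the macrophage gene Csf1r fell, by -0.40 and -0.37, as 2 of the 6 macrophage probes tested, and the macrophage score ran from 5.41 to 7.05 in blank and from 5.11 to 6.44 in testosterone arrays. The single lymphocyte probe tested, that of Cd79b, fell by -0.66, and 2 of 4 epithelial probes fell, Wfdc2 by -0.61 and Tmprss2 by -0.48. None of the 5 hepatocyte probes was called by limma. The part of other cells in the differences of Per3 and Clock was not tested.

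The drop of Per3 was seen on slides that held both treatments. Testosterone arrays were lower than blank ones on 3 of 3 such slides, but the differences were unequal, at -0.17, -0.38 and -2.09. Most of the drop within slides thus lay on 1 slide. With slide as a fixed block the fitted difference was -0.96 (limma, adjusted p = 0.00635). Clock was higher on 3 of 3 slides, by 0.07, 0.12 and 0.95, the last of these on the slide where Per3 fell most.

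Within gonad types, testosterone calls of members were found with Sry, where 5 of 12 probes were called against 9.14% of all tested probes, and 0 of 12 without Sry, where 7.06% were called and 1 member probe had an unadjusted p under 0.05 (limma). With Sry, Per3 was -1.74 ± 0.34 lower (adjusted p = 0.000258), and in the XXSry groups blank and testosterone arrays did not overlap (7.28 to 8.86 and 5.23 to 7.0). Per2 was -0.95 ± 0.28 lower by one probe and -0.94 ± 0.27 by the other (adjusted p = 0.0208 and 0.0186). Per1 was lower by its dimmer probe (-0.85 ± 0.27, adjusted p = 0.0358) but not called by its brighter one (-0.61 ± 0.33). Clock was 0.76 ± 0.17 higher (adjusted p = 0.00156).
Without Sry the differences were -0.56 ± 0.34 for Per3, -0.04 ± 0.28 for Per2 and 0.36 ± 0.17 for Clock. The difference between the gonad types was itself tested and was called for 0 of 12 member probes (limma, smallest adjusted p = 0.624, 7 with an unadjusted p under 0.05), where 0.124% of all tested probes were called. For Per3 it was -1.18 ± 0.48 (adjusted p = 0.750), so the testosterone response was not shown to depend on gonad type.

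Estradiol lowered both Per2 and Per3 in liver. Per2, which holds back the CLOCK and BMAL1 pair, had levels of 7.37 to 10.62 in blank arrays (median 9.98) and 7.37 to 10.55 with estradiol (median 8.86). It was lower by -0.80 ± 0.20 (1.74-fold, adjusted p = 0.00688) and by -0.77 ± 0.19 with its other bright probe (adjusted p = 0.00719), and both arms spanned nearly the same range. Per3 had levels of 4.52 to 8.16 with estradiol (median 6.80), -0.95 ± 0.24 against blank (1.94-fold, adjusted p = 0.00742). These were 3 of 12 member probes from 2 members, all lower, with 6.82% of all tested liver probes called, 3.55% higher and 3.27% lower. With slide as a fixed block Per2 was at -0.87 (adjusted p = 0.0177) and Per3 at -1.09 (adjusted p = 0.0123), and on the 2 slides that held blank and estradiol arrays both were lower. The median difference of the 12 probes was -0.33, against -0.02 over all tested probes. Without the 3 arrays lowest in Dbp the same 3 probes were called for estradiol, Per2 at -0.75 and -0.75 and Per3 at -0.87, and for testosterone Per3 was at -1.25 and Clock at 0.60.

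Dbp and Tef had lower means with estradiol in liver but did not pass. The difference was -0.57 ± 0.29 for Dbp (adjusted p = 0.263) and -0.54 ± 0.18 for Tef (adjusted p = 0.0577). Tef was called under median centring, at -0.73 (adjusted p = 0.0309), and with a background offset of 50, at -0.47 (adjusted p = 0.0499). Without any 1 of 9 arrays it was also called, with values from -0.61 to -0.57. Those arrays were XY-Sry E replicate 5, XY-Sry B replicate 5, XXSry B replicate 4, XY- B replicate 1, XY- E replicates 1 and 5, XX B replicates 1 and 3, and XX E replicate 4. Dbp was at -0.34 without XX E replicate 1 and at -0.77 without XX B replicate 1, and it was called in neither case. With slide as a fixed block it was at -0.98 (adjusted p = 0.0840) and with array weights at -0.24 (adjusted p = 0.596). Clock, at 0.35 ± 0.12 (adjusted p = 0.0630), passed without any 1 of 6 arrays, at 0.38 to 0.40: XXSry B replicate 3, XXSry E replicate 2, XY- B replicate 3, XY- E replicates 1 and 3, and XX B replicate 1. Nfil3 differed by 0.23 ± 0.18 (adjusted p = 0.510).
With Sry, 1 of 12 member probes was called for estradiol, the second probe of Per2 (-0.98 ± 0.27, adjusted p = 0.0442), where 1.78% of all tested probes were called. Without Sry 0 of 12 were called (limma, smallest adjusted p = 0.0671, 3 with an unadjusted p under 0.05), where 2.47% of all tested probes were.
The estradiol difference was not called in any member probe for its dependence on gonad type (0 of 12 by limma, 0 with an unadjusted p under 0.05, and 0.0795% of all tested probes called). Macrophage markers moved with estradiol in the same livers: 6 of 6 probes of Cd68, Adgre1 and Csf1r rose, their score running from 5.41 to 7.05 in blank and from 5.78 to 7.64 in estradiol arrays. Their part in the fall of Per2 and Per3 was not tested.

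Gonad type moved no member past the threshold in liver, although Dbp, Per2 and Per3 had higher means with Sry. Dbp ran from 6.86 to 12.76 without Sry (median 12.10) and from 11.09 to 12.93 with it (median 12.27), a difference of 0.66 ± 0.24 (adjusted p = 0.147). Per2 was 0.52 ± 0.16 higher (adjusted p = 0.0617) and Per3 0.51 ± 0.20 (adjusted p = 0.184). None of 12 probes was called by limma, 5 had an unadjusted p under 0.05, and 3.4% of all tested probes were called. With slide as a fixed block 2 were called, Per2 at 0.52 (adjusted p = 0.0454) and the dim probe of Tef at 0.35 (adjusted p = 0.0413). Per2 also passed without any 1 of 13 arrays, at 0.54 to 0.58: XY-Sry T replicate 5, XY-Sry E replicates 2 and 3, XXSry B replicate 3, XXSry T replicates 3 and 5, replicate 2 of XY- B and of XY- T, XY- E replicate 3, XX B replicates 4 and 5, XX T replicate 1 and XX E replicate 5. Dbp was higher with Sry on 8 of 8 slides, by 0.18 to 1.47. Macrophage markers fell with Sry in 6 of 6 probes (scores 5.15 to 7.64 without Sry and 5.11 to 6.71 with it), and their part was not tested.
Among blank arrays alone the gonad difference was larger for several members, at 1.01 ± 0.42 for Dbp, 0.91 ± 0.28 for Per2 and 0.81 ± 0.34 for Per3. Of the 12 probes 10 had an unadjusted p under 0.05 there and 0 passed limma's adjusted threshold (smallest adjusted p = 0.0683), which 1.75% of all tested probes did. The XX B group had the lowest mean in each of these 3. Its mean of Dbp was 10.66, against 12.41 in XY- B, 12.52 in XXSry B and 12.57 in XY-Sry B. For Per2 the means were 8.50, 9.81, 10.03 and 10.11 in the same order, and for Per3 6.50, 8.09, 8.24 and 7.97. Replicates 1 and 3 of XX B were at 7.55 and 9.60 in Dbp, and its other arrays at 11.58 to 12.37.
Sex chromosome complement gave 0 of 12 member calls in liver (limma, 0 with an unadjusted p under 0.05, 0.186% of all tested probes called).

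**Figure D3:**
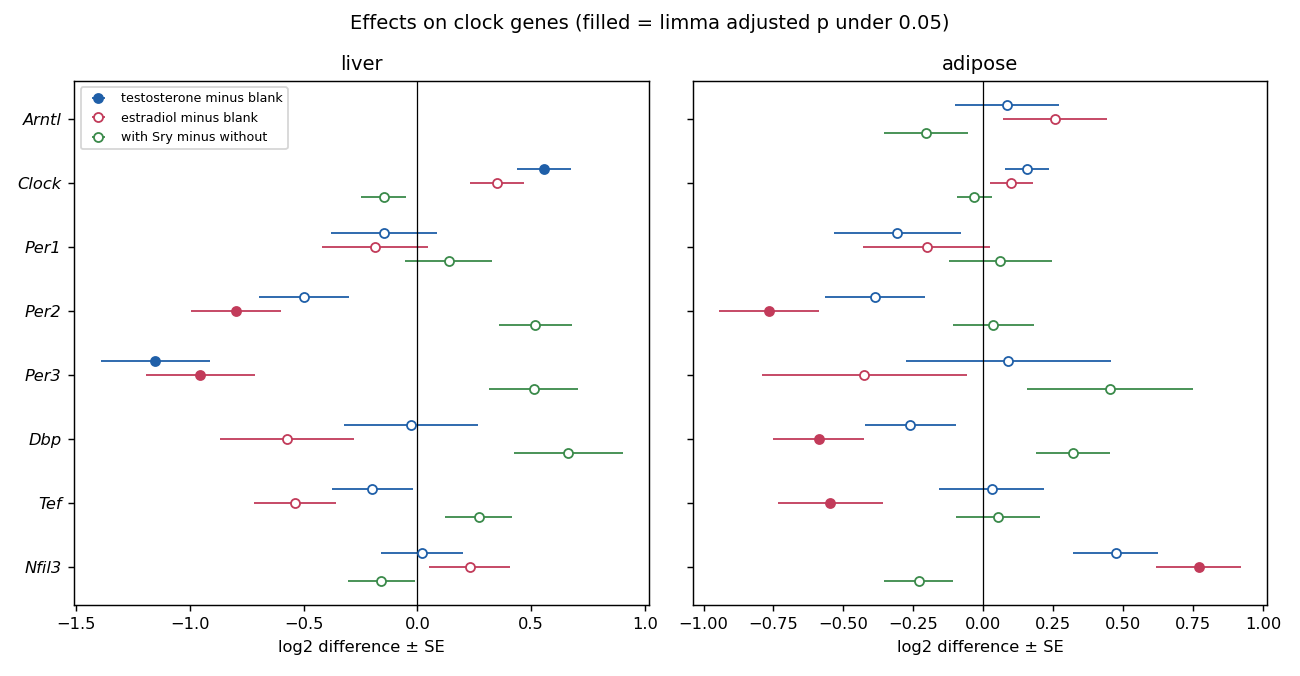
Differences of the brightest probe of each clock gene in liver and adipose tissue for testosterone, estradiol and Sry, on the log2 scale with SE; filled points have a limma adjusted p under 0.05, and Arntl has no points in liver because it was not tested there. The filled points are Per3 and Clock for testosterone and Per2 and Per3 for estradiol in liver, and Per2, Dbp, Tef and Nfil3 for estradiol in adipose tissue.

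In adipose tissue estradiol raised Nfil3 and lowered Per2, Dbp and Tef. Nfil3, the D-box repressor, had levels of 8.15 to 9.67 in 17 blank arrays (median 8.60) and 8.68 to 10.44 in 19 estradiol arrays (median 9.50). In XX mice it was 8.42, 8.82 and 8.99 in blank arrays and 9.43, 9.50, 9.61, 9.62 and 9.86 with estradiol. In XXSry mice the blank arrays were 8.15, 8.36, 8.60, 8.66 and 8.66 and the estradiol arrays 8.73, 9.07, 9.50 and 9.52. Blank and estradiol arrays did not overlap in these 2 genotypes, and in XY- mice a single blank array, replicate 2 at 9.67, reached into the estradiol range. In XY-Sry mice the blank arrays, 8.28, 8.29, 8.44 and 8.70, overlapped the 5 estradiol arrays by the lowest of these, 8.68, the others reaching up to 9.83. The difference was 0.77 ± 0.15, 1.70-fold higher (adjusted p = 0.000152), and it was 0.77 with Sry and 0.77 without it.

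Per2 had levels of 9.42 to 11.18 in blank arrays (median 10.13) and 8.36 to 10.24 with estradiol (median 9.64). It was lower by -0.77 ± 0.18 (1.70-fold, adjusted p = 0.00118) and by -0.58 ± 0.19 with its other probe (adjusted p = 0.0213). In XX mice the blank arrays of Per2, 10.08, 10.22 and 10.55, lay above all 5 estradiol arrays, of which the highest was 9.87.
Dbp had levels of 12.28 to 13.45 in blank arrays (median 13.11) and 10.98 to 13.20 with estradiol (median 12.42), a difference of -0.59 ± 0.16 (1.5-fold, adjusted p = 0.00637). The 4 lowest were XX E replicate 3 at 10.98 and XY- E replicates 3, 1 and 4 at 11.08, 11.58 and 11.60. The XXSry E arrays, at 12.76 to 13.20, lay within or just below their blank group at 12.81 to 13.21.
Tef had levels of 8.88 to 10.97 in blank arrays (median 10.10) and 8.45 to 10.51 with estradiol (median 9.51), a difference of -0.55 ± 0.19 (adjusted p = 0.0304). This call was lost without any 1 of 7 arrays, at -0.52 to -0.49 (adjusted p from 0.0506 to 0.0600): XY-Sry B replicate 2, XXSry E replicate 1, XY- B replicate 5, XY- E replicate 1, XX B replicate 3 and XX E replicates 2 and 3. Under median centring Tef was at -0.53 (adjusted p = 0.165) and the second Per2 probe at -0.54 (adjusted p = 0.153), neither of them called. The dim probe of Tef was at -0.52 under quantile normalisation and was not called (limma, adjusted p = 0.402).

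These were 5 of 12 member probes, 1 higher and 4 lower, in a contrast that called 20.5% of all tested adipose probes, 10.4% higher and 10.1% lower. The median difference of the 12 was -0.41, and -0.02 over all tested probes. With slide as a fixed block all 5 were still called, Nfil3 at 0.70, Per2 at -0.79 and -0.66, Dbp at -0.53 and Tef at -0.66, and on the 2 slides with blank and estradiol arrays each moved the same way. Arntl differed by 0.25 ± 0.19 (adjusted p = 0.375) and Clock by 0.10 ± 0.08 (adjusted p = 0.410). Per3 differed by -0.43 ± 0.37 (adjusted p = 0.467) with the slide left in its spread, and by -0.37 (adjusted p = 0.316) with slide as a fixed block. Per1 was not called by either probe (-0.40 ± 0.19 and -0.20 ± 0.23), though without XX B replicate 2 the first was at -0.52 (adjusted p = 0.0478) and with array weights at -0.46 (adjusted p = 0.0393).

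Within gonad types, the probes of Per2, Dbp, Tef and Nfil3 were called without Sry, 5 of 12 probes against 10.2% of all tested probes, with Per2 at -1.09 ± 0.25, Dbp at -0.75 ± 0.23 and Tef at -0.82 ± 0.27. With Sry 1 of 12 was called, that of Nfil3, against 10.1% of all tested probes, and Per2 was at -0.44 ± 0.25, Dbp at -0.43 ± 0.23 and Tef at -0.28 ± 0.26. The test of the difference called none of the 12 (limma, smallest adjusted p = 0.956, 0 with an unadjusted p under 0.05, 0.813% of all tested probes called), so the gonad types were not shown to differ.

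Cells other than adipocytes moved with estradiol as well. All 6 probes of the macrophage markers Cd68, Adgre1 and Csf1r rose, by a median of 1.29, and their score ran from 6.56 to 8.91 in blank and from 7.50 to 9.58 in estradiol arrays. Of 6 adipocyte probes 3 fell, those of Plin1, Lep and Lipe, by -0.40, -0.47 and -0.46, and none was at background in all arrays. Lymphocyte scores ran from 5.31 to 11.7 in blank and from 5.2 to 11.2 in estradiol arrays, and muscle scores from 8.44 to 14.3 and from 5.88 to 14.1. With the scores of muscle, lymphocytes, epithelium and hepatocytes as covariates the 5 member calls stood, Nfil3 at 0.81, Per2 at -0.89 and -0.71, Dbp at -0.68 and Tef at -0.57. The part of macrophages was not tested. In such tissue samples fewer cells of a type and less RNA per cell cannot be told apart.

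Testosterone moved no member past the threshold in adipose tissue, where 4.75% of all tested probes were called. Nfil3 came nearest, with levels of 8.19 to 10.10 (median 9.07) in 19 testosterone arrays and a difference of 0.47 ± 0.15 (adjusted p = 0.0619). In all 4 of 12 probes had an unadjusted p under 0.05 by limma. Nfil3 passed without any 1 of 7 arrays, at 0.47 to 0.53: XY-Sry T replicate 5, XXSry T replicates 2 and 4, XY- B replicate 2, XY- T replicate 5, XY- E replicate 3 and XX T replicate 1. It also passed with array weights, at 0.45 (adjusted p = 0.0480), and with adipose XX E replicate 1 taken as testosterone, at 0.51 (adjusted p = 0.0379).
Gonad type called 0 of 12 member probes in adipose tissue (limma, 1 with an unadjusted p under 0.05) against 7.34% of all tested probes. Dbp was 0.32 ± 0.13 higher with Sry (adjusted p = 0.156), with levels of 10.98 to 13.45 without it and 11.79 to 13.26 with it. The epithelial markers fell steeply with Sry in 5 of 5 probes, with scores of 8.83 to 11.9 without Sry and 5.04 to 9.28 with it. Of 6 adipocyte probes 4 were higher with Sry, Plin1 by 0.39, Lep by 0.50 and Lipe by 0.42 and 0.50. The part of these cells in the level of Dbp was not tested. Sex chromosomes called 0 of 12 (limma, 1 with an unadjusted p under 0.05, 0.137% of all tested probes called).

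**Figure D4:**
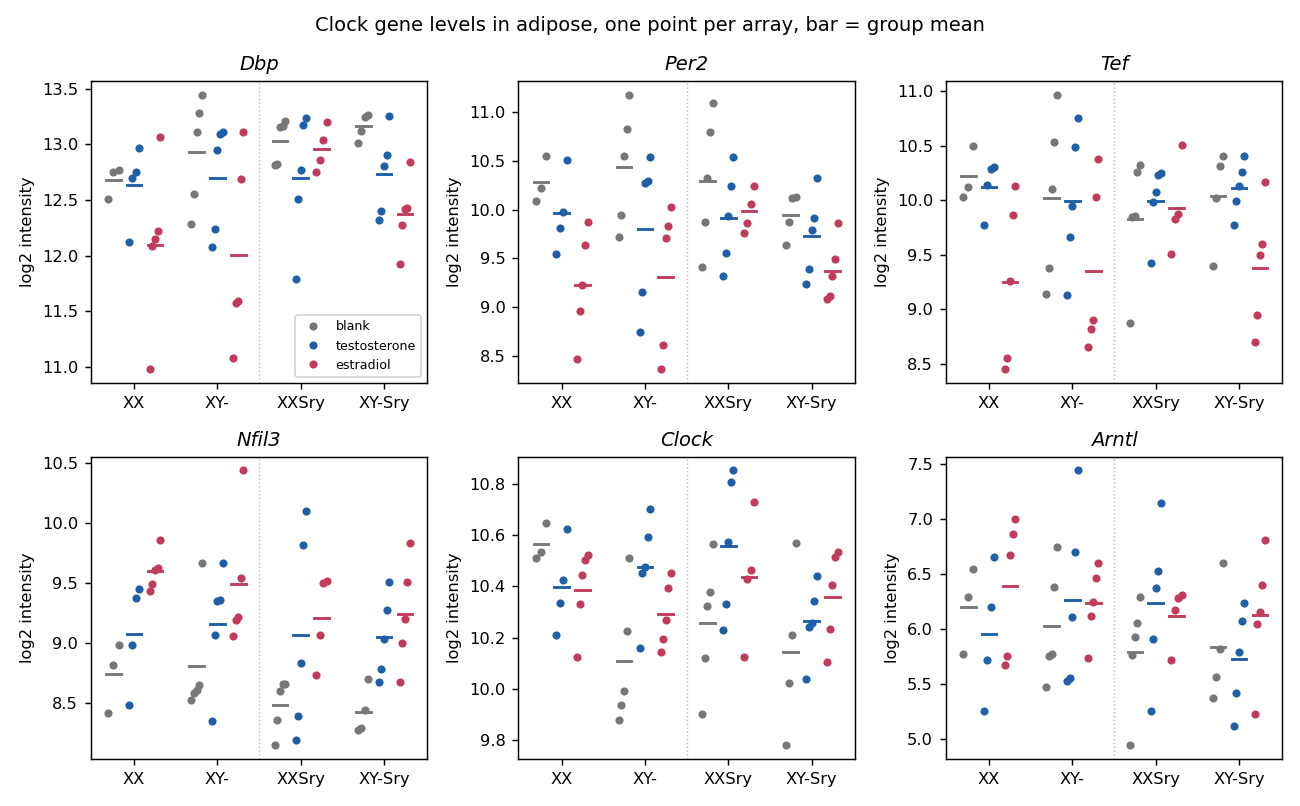
Levels of 6 clock genes in adipose tissue by genotype and treatment, as log2 intensity of the brightest probe, with 1 point for each of 55 arrays and a bar for the group mean; the dotted line divides groups without Sry from groups with it. Nfil3 lies between 8.15 and 9.67 in blank and between 8.68 and 10.44 in estradiol arrays, and Dbp drops to 10.98 in XX E.

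Members were then set against each other across arrays, after the mean of each group had been removed, so that differences between group means do not enter. Groups with a wide spread still weigh more in r. Of 19 such relations 7 were in liver and 12 in adipose tissue, including Dbp with Lcn2 in each, and p-values come from permutations within groups and were adjusted over the 19. Each relation is across arrays that share slides. Where 2 arrays were left out, the group means removed were still those of all arrays.
In liver, Dbp rose and fell with Per3 (r = 0.65, rho = 0.56, permutation test, adjusted p = 4.75e-05 and 0.00038). It did so with Tef (r = 0.63, rho = 0.58, permutation test, adjusted p = 4.75e-05 and 0.000142). For Per2 the correlation was 0.48 (rho = 0.53) and for Per1 0.41 (rho = 0.49), with adjusted p = 0.00781 and 0.0132 for r. Without the 2 arrays lowest in Dbp, r was 0.60 for Per3, 0.62 for Tef, 0.54 for Per2 and 0.42 for Per1. Those 2 arrays still counted in the group means, so these values cannot show whether the relations rest on them. With all arrays kept and slide means removed as well, r was 0.77, 0.72, 0.52 and 0.36 in the same order. Within the testosterone arrays alone Dbp and Tef were not related (r = 0.00058, against 0.57 in blank and 0.80 in estradiol arrays).
Nfil3 and Clock ran opposite to Dbp in liver under quantile normalisation, and neither relation passed under median centring. For Nfil3 r was -0.70 (rho = -0.55, permutation test, adjusted p = 4.75e-05 and 0.00038) and -0.54 without the 2 arrays lowest in Dbp. Under median centring it was -0.35 (adjusted p = 0.0661). For Clock r was -0.52 (rho = -0.62, permutation test, adjusted p = 4.75e-05 and 0.000127), -0.51 without those 2 arrays and -0.19 under median centring (adjusted p = 0.345).

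In adipose tissue Arntl, detected on 29 of 55 arrays, could be set against other members. Arntl ran opposite to Dbp (r = -0.54, rho = -0.58, permutation test, adjusted p = 0.000114 and 0.000127), and r was -0.51 without the 2 arrays farthest in Arntl, -0.58 with slide means removed and -0.54 under median centring. It was -0.58 within blank, -0.65 within testosterone and -0.48 within estradiol arrays. Arntl with Tef had r = -0.35 (rho = -0.35, permutation test, adjusted p = 0.0281 and 0.0305), which was -0.31 under median centring (adjusted p = 0.0661). Arntl with Clock and Arntl with Nfil3 each had r = 0.32 and did not pass (permutation test, adjusted p = 0.0535 and 0.0651).
Dbp rose with Per2 (r = 0.64, rho = 0.67, permutation test, adjusted p = 0.000127 for both), with Tef (r = 0.57, rho = 0.55) and with Per1 (r = 0.51, rho = 0.49). Without the 2 arrays farthest in Dbp these were 0.60, 0.49 and 0.42. Nfil3 and Clock were each at r = -0.48 with Dbp (rho = -0.41 and -0.49, permutation test, adjusted p = 0.00374 and 0.000434), but at -0.04 and 0.29 under median centring, which turned the sign for Clock.
Dbp and Per3 had the highest positive r of the relations tested in liver. In adipose tissue they showed no relation before slides were removed (r = 0.06, rho = 0.08, permutation test, adjusted p = 0.727 and 0.686). With slide means removed r was 0.49 (rho = 0.47, permutation test, adjusted p = 0.00126 for r). Arntl and Per3 likewise went from 0.05 to -0.39 (adjusted p = 0.0116). Per3 is the member of which the slide took most of the variance.

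**Figure D5:**
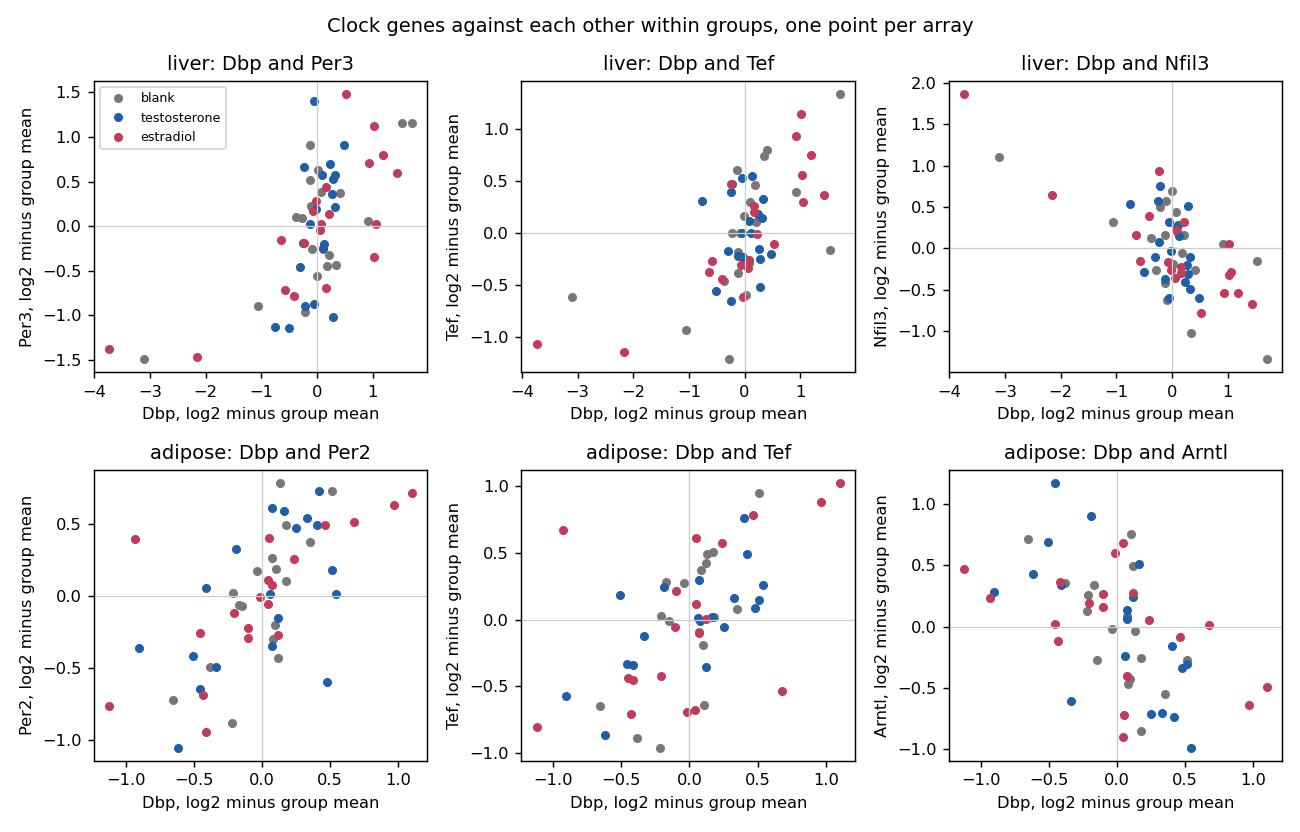
Pairs of clock genes in liver and adipose tissue, each point 1 array, both axes in log2 after the mean of its group was removed. In liver Dbp rises with Per3 (r = 0.65) and Tef (0.63) and runs opposite to Nfil3 (-0.70), and in adipose tissue it rises with Per2 (0.64) and Tef (0.57) and runs opposite to Arntl (-0.54); the points at the far left in liver are the arrays lowest in Dbp.

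Apart from the members and from probes without a symbol, those most like Dbp across 60 liver arrays, with group means removed, included Upp2 (r = 0.78), Sdh1 (0.76), Cyp2a5 (0.74), Inmt (0.72), Car3 (0.71), Eif4a2 (0.70) and Shmt1 (0.70). Upp2 encodes a uridine phosphorylase and Cyp2a5 a cytochrome P450 of liver. Opposite to Dbp were Pnp (-0.78), 2210413P12Rik (-0.73), Dnmt3b (-0.72), the cell cycle inhibitor Cdkn1a (-0.72), Insig2 (-0.71), which holds back sterol synthesis, Dpp9 (-0.69), Ppm1l (-0.69) and Ganab (-0.68). Nfil3 stood at rank 6 of 11317 among the probes opposite to Dbp and Per3 at rank 24 among those like it, in an order of all tested probes that counts Dbp itself first. This order was taken under quantile normalisation, and r of Nfil3 with Dbp was -0.35 under median centring. The likeness values are descriptions across arrays that share slides, with no p-value.
In adipose tissue, members again left out, the probes most like Dbp included Tmem43 (r = 0.67), Pcsk4 (0.67), the adipocyte hormone Lep (0.63), Slc5a6 (0.63), Acsl1 (0.62), which activates fatty acids, Nrg4 (0.61), Apcdd1 (0.61) and Nos3 (0.61). Both bright probes of Per2 (r = 0.64 for the brightest) stood at ranks 5 and 9 of 14636 in the order of all tested probes. Opposite were Retnlg (-0.64), S100a9 (-0.63) and S100a8 (-0.60), which are known from neutrophils, then C78541 (-0.57), EG433016 (-0.57), Ncl (-0.55), Mettl1 (-0.55) and again Cdkn1a (-0.54). The part of neutrophils and of adipocyte content in the level of Dbp was not tested.
Arntl in adipose tissue was most like Cdc42ep3 (r = 0.64), Tmem2 (0.64) and Zbed4 (0.62), and most opposite to Gpr135 (-0.60), Fgf10 (-0.59) and C330008I15Rik (-0.59).

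Other genes of the clock were read from a list of 16, of which 11 were tested in each tissue with 20 probes. In liver 4 of 20 probes were called with testosterone, 1 higher and 3 lower, where 19.1% of all tested probes were called, and 3 with estradiol, all lower, where 6.82% were. Nr1d2, which encodes REV-ERB beta, fell by 1 probe with both hormones (-0.33 ± 0.12 with testosterone and -0.50 ± 0.12 with estradiol, adjusted p = 0.0341 and 0.00385). Its other tested probe was called with neither. The kinase gene Csnk1d rose with testosterone by 1 of its 5 tested probes, by 0.31 ± 0.08.
In adipose tissue 11 of 20 probes were called with estradiol, 1 higher and 10 lower, where 20.5% of all tested probes were called, 10.4% higher and 10.1% lower. The median of the 20 was -0.31, against -0.02 over all tested probes. Nr1d1, the gene of REV-ERB alpha, fell by both probes (-0.60 ± 0.15 and -0.69 ± 0.18, adjusted p = 0.00285 and 0.00368). Ciart, a repressor of the CLOCK and BMAL1 pair that the array lists under its older symbol Gm129, fell by -0.95 and -0.81. Csnk1e fell by 2 probes (-0.36 and -0.25) and Btrc by -0.23, while the probes of Csnk1d disagreed, 1 being higher by 0.36 and 1 lower by -0.27.
Of 6 output genes, 5 were tested with 9 probes in each tissue. In liver 4 of the 9 were called with testosterone and 3 with estradiol, all lower. For gonad type 1 was called there, higher with Sry. The shares of all tested liver probes were 19.1%, 6.82% and 3.4%. In adipose tissue testosterone called 1, higher, and estradiol called 1 higher and 2 lower. Gonad type called 4, all higher with Sry. The shares of all tested adipose probes were 4.75%, 20.5% and 7.34%. Usp2, a deubiquitinase that is driven by the clock in many tissues, fell with estradiol in liver by 3 probes, at -0.89, -0.53 and -1.16. Por, the reductase that serves cytochromes P450, fell by 3 probes with testosterone in liver (-0.55, -0.36 and -0.31) and by 2 with estradiol in adipose tissue (-0.58 and -0.62). Nampt fell with testosterone in liver (-0.37), and Alas1, which makes heme precursors, rose in adipose tissue with testosterone (0.43) and with estradiol (0.42). With Sry, Por was higher by 1 probe in liver (0.34) and by 3 in adipose tissue (0.61, 0.39 and 0.33). Alas1 was also higher with Sry in adipose tissue (0.27). In liver the 3 tested probes of Usp2 stood at ranks 16, 374 and 451 and Ciart at ranks 40 and 49 when the 11317 probes were ordered by likeness to Dbp. Other tested genes of the clock and output lists ranged from Bhlhb2 at rank 61 to a probe of Csnk1d at rank 10181. Between them lay Hlf at 5520, Rora at 4964 and Cry2 at 3840.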

How the data were processed

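Mouse liver (60 arrays) and inguinal adipose tissue (55 arrays) were measured on 1-colour BeadChips. Per the file headers, the authors deposited for each array the mean bead intensity of every probe on a linear scale, its standard error between beads, and a detection p-value. The submitters' processing notes name lumi with no role. Array medians of the deposited intensity differ, and none of the values is below 0 (lowest 89.1 in liver and 92.6 in fat). Scanner software and array version are not given in the sources used here.

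Each tissue was processed apart in limma 3.58.1 (R 4.3.3): normexp background correction with control distributions inferred from the detection p-values, an offset of 16, quantile normalisation and log2. The offset understates differences of dim probes. Probes were tested if their detection p was under 0.01 in at least 5 liver or 3 adipose arrays. A mean was fitted for each group of genotype and treatment. Hormone, gonad and sex chromosome effects weighted genotypes equally, and p-values were adjusted by Benjamini-Hochberg over all tested probes, with a threshold of 0.05. The effect fit and the relation test were tested on simulated data. Relations used 100000 permutations within groups, for which the smallest possible p is 1e-05. The number of arrays limits the precision.

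The members and gene lists were chosen with earlier results of these data known. The genes most like Dbp or Arntl were taken from the 8 highest and 8 lowest by r. Some genes of these and of the other clock list are not reported here. Replicate numbers follow the order of deposit and only name an array. Alternatives were other background corrections, normalisation and filters, slide as a block, array weights, marker scores as covariates and leaving out single arrays. The fit without the 3 liver arrays lowest in Dbp, the test of spread and the relations of Dbp with Per1, Nfil3, Clock and Lcn2 were chosen after seeing the data. Promoter sequences are from RefSeq (GRCm38.p6). Per2 was not analysed for motifs.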

Additional observations from a re-analysis of the deposited data

Results flagged for a closer look

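Single arrays stood apart within their group in 10 of 172 sets (84 in liver and 88 in adipose tissue, each 1 member in 1 group of at least 4 arrays), by the gap to the nearest array as a share of the group's range. Chance alone picks out about 1 in 20 groups, which is 8.6 of 172. In liver, Dbp was 6.86 in XX E replicate 1 against 10.66 to 12.03 in the rest of the group, and Nfil3 of the same array was 11.55 against 9.02 to 9.40. Nfil3 was 9.48 in XXSry E replicate 1 against 8.25 to 8.38. Clock was 8.29 in XY-Sry T replicate 1 against 8.87 to 8.94. Tef was 8.76 in XY-Sry E replicate 5 against 7.46 to 7.82. In adipose tissue, Per1 was 9.15 in XY-Sry B replicate 1 against 9.997 to 10.14, 10.74 in XY-Sry E replicate 5 against 9.12 to 9.59, and 11.02 in XY- E replicate 5 against 9.29 to 9.64. Per3 was 5.99 in XXSry B replicate 5 against 8.47 to 8.98, and Nfil3 was 9.67 in XY- B replicate 2 against 8.52 to 8.65.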

How the results depend on the processing

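Counts of member probes called changed as follows, and the causes were not tested. In liver, the gonad count of 0 became 2 with slide as a fixed or as a random block. In adipose tissue, the testosterone count of 0 became 1 with array weights, with XX E replicate 1 taken as testosterone, or with other-tissue scores as covariates. The estradiol count of 5 became 3 under median centring, and the sex chromosome count of 0 became 1 with array weights. Leaving out 1 array at a time gave 2 to 3 calls for testosterone, 3 to 5 for estradiol and 0 to 2 for gonad type in liver, and 0 to 1 for testosterone and 4 to 6 for estradiol in adipose tissue. The liver estradiol count was 5 without XY- E replicate 1, XY- E replicate 3 or XX B replicate 1. The liver gonad count was 2 without XY- E replicate 3 or XX B replicate 5, and 1 without any of 11 others, among them XY-Sry T replicate 5.

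Of the relations, under median centring liver Dbp with Nfil3 was -0.35 and with Clock -0.19, and in adipose tissue Arntl with Tef was -0.31, Dbp with Nfil3 -0.037 and Dbp with Clock 0.29, which reversed it. With slide means removed, adipose Dbp with Per3 was 0.49, Arntl with Clock 0.40 (0.32 without, adjusted p = 0.0535, and 0.023 under median centring, adjusted p = 0.884), and Arntl with Per3 -0.39, which reversed it. Of the pairs listed for Arntl and other members, 7 in liver and 2 in adipose tissue were not run, since a gene of the pair was not tested there. No paired analysis was possible because the labels carry no replicate numbers that groups share; slide was fitted as a block instead. Every slide lacks at least 1 treatment, so a hormone and its slides can be told apart only in part. Signal over background limits Arntl, Npas2 and Cry1, which had few or no detected arrays in liver.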
